A study of Arabidopsis thaliana with 2 samples.

Results

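The LPXC duplication of Arabidopsis thaliana is a stretch of chromosome 1 in which 1 block of sequence occurs 5 times in a row. It carries the 5 genes annotated as LPXC: LpxC1 (AT1G24793), LpxC2 (AT1G24880), LpxC3 (AT1G25054), LpxC4 (AT1G25145) and LpxC5 (AT1G25210). Its members here are the deposited bins of chromosome 1 with a start between 8750000 and 8849999. The table holds 25 such bins among 56731 in all, and it lists only bins whose 2 libraries differed at p of at most 0.01. The listed bins were therefore chosen on the readout itself, and all their values are given as descriptions with no test.

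The libraries came from 12-d-old seedlings, with 1 library of the wild type Col-0 and 1 of miP1a-OX (35S::FLAG-miP1a), which expresses FLAG-tagged miP1a, a microProtein that represses flowering, from the constitutive 35S promoter. No treatment was applied to either genotype. Growth was in long days, on soil according to the sample records and on plates of MS medium according to the methods. The question put to the pair was where the overexpression of miP1a goes along with a changed DNA methylation. With 1 library per genotype no difference has a replicate check, and the intervals given cover counting error only. Calls from the same read are also not independent.

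LPXC encodes UDP-3-O-acyl-N-acetylglucosamine deacetylase, which in Escherichia coli takes the committed step of lipid A synthesis, the membrane anchor of bacterial lipopolysaccharide. Arabidopsis has genes for the same chain of enzymes, and their products act in mitochondria. In plants, DNA is methylated at cytosines in the CG, CHG and CHH contexts (H stands for A, C or T), and cytosines outside CG are methylated mainly in transposons and other repeats. A bisulfite read that fits several copies of a repeat cannot be placed by its sequence alone.

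A bin is counted over 99 bases of every 100, and its level is the share of methylated among all cytosine calls of both strands and all contexts. The number of cytosines given for the bins equalled C plus G of the TAIR10.1 sequence in 25 of 25 members. Coordinates below follow that build and its RefSeq annotation. A listed nuclear bin held 361 (Col-0) and 363 (miP1a-OX) calls as a median, or 10.9 and 10.8 calls per covered cytosine. The pooled level of those bins was 13.9% and 16.1%. In the 70 listed bins of the chloroplast, whose DNA is commonly taken as unmethylated, 0.290% and 0.177% of the calls read as methylated. These bins too were listed by their p, so the values do not describe the chloroplast as a whole.

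The block was delimited by aligning the interval to itself. The 5 copies began at 8765479, 8779862, 8802390, 8816768 and 8831146 on chromosome 1. They measured 14383, 14586, 14378, 14378 and 7403 bases, so the fifth copy is cut short. The second copy is interrupted by 7942 bases of other sequence, from 8790241 to 8798182, which hold pseudogenes and are called the insertion here. The 7 alignments between copies had identities of 98.7% to 99.9%. The copies are thus nearly the same sequence laid out in series.

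Each LPXC gene lies on the plus strand. LpxC1 spans 8767562 to 8769571, LpxC3 8804489 to 8806361, LpxC4 8818867 to 8820736 and LpxC5 8833245 to 8835235, and these 4 begin 2084 to 2100 bases into their copies. Their gene sequences were identical, with 100% identity of each to the matching positions in copies 1, 3, 4 and 5. LpxC2 spans 8775901 to 8778072, lies 10423 bases into the first copy and is thus not at the position of the others. Its 2172 bases matched 8798429 to 8800600 at 100% identity, and 8812809 to 8814978 and 8827187 to 8829356 at 99.9%. None of these positions lies at another LPXC gene. The other 4 genes had no match of at least 1000 bases at 90% identity to LpxC2. In the second copy the position equivalent to LpxC3, from 8781961 to 8783832, matched it at 99.9% over 1873 bases but carries none of the 5 gene names.

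How far a read could be placed was described by reading every cytosine of the genome as T, on each strand. All overlapping 150-base windows were then compared to find those that occurred only once. Of the 653 bins of the unit copies, 586 (89.7%) had no such unique window. In the flanks each of the 154 bins on the left and 114 on the right had unique windows alone, and in the insertion 10 of 79 bins had none. Among the 25 listed bins 4 had no unique window and 14 had unique windows alone. A bin with no unique window made up 0.879% of the listed nuclear bins.

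**Figure D1:**
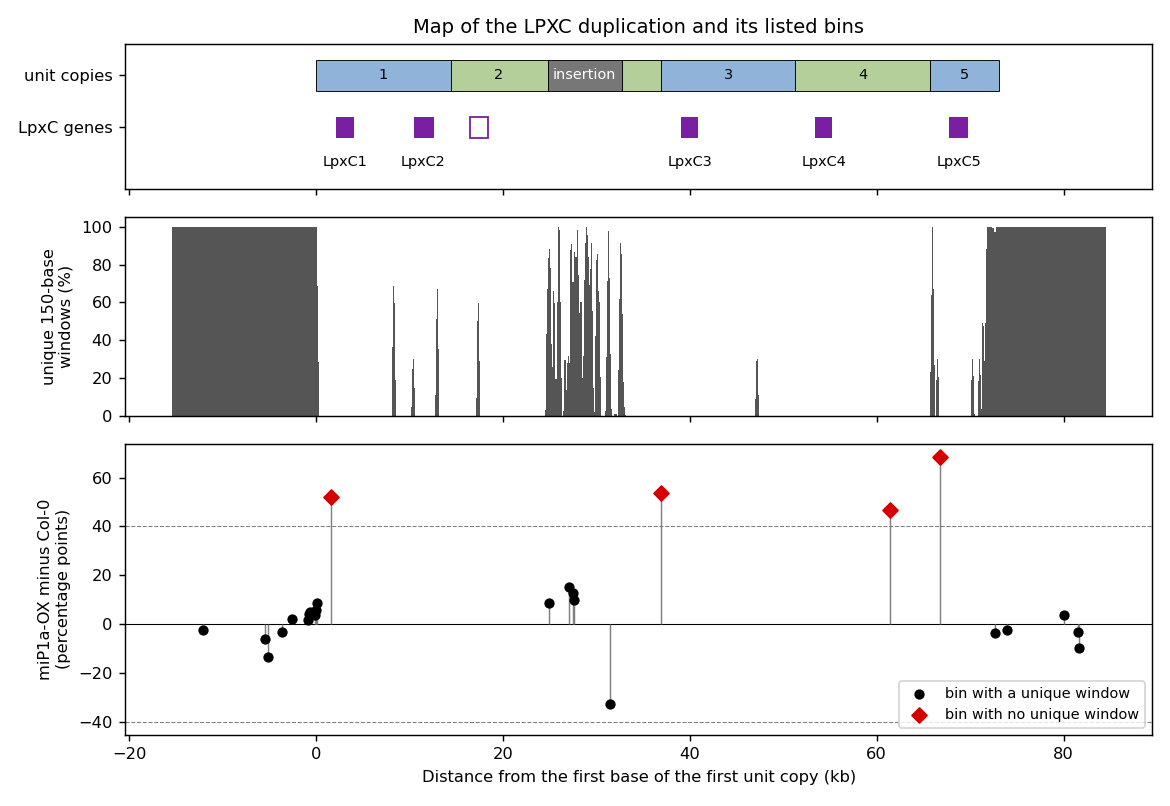
Map of the LPXC duplication against the distance from the first base of the first copy, in kb. The top row shows the 5 unit copies, the insertion and the 5 LPXC genes (filled) with the position in the second copy that matches LpxC3 (open), the middle row the share of unique 150-base windows per bin in percent, and the bottom row the difference in level of each of the 25 listed bins in percentage points, with dashed lines at 40 points. The 4 bins above 40 points (diamonds) all lack a unique window, and the bins of the flanks lie between -13.5 and 4.83 points.

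A set of 4 sequences carries the large differences of the duplication. They are printed as the plus strand of TAIR10.1 from 5′ to 3′, with each CG site in capitals, because their level pools CG with other cytosines and because the same letters stand in other copies.
chr1:8767101-8767199, copy 1, upstream of LpxC1: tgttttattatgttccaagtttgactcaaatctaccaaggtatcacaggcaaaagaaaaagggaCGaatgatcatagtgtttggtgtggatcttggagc
chr1:8802401-8802499, copy 3, first bases of the copy: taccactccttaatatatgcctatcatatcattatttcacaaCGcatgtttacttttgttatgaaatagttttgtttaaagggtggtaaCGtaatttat
chr1:8826901-8826999, copy 4, in the noncoding gene AT1G25175: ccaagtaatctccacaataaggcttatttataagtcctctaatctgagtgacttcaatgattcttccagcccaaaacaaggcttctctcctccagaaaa
chr1:8832301-8832399, copy 5, upstream of LpxC5: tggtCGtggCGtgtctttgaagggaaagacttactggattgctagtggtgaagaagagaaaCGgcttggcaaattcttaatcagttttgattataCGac

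Each of the 4 sequences was more methylated in miP1a-OX by over 40 points. Pooled over them, the wild type had 17 methylated among 152 calls (11.2%) and miP1a-OX had 45 among 69 (65.2%). Of those 45, the bin at 8826901 gave 27. These bins were set apart by their differences and had a median of 1 call per covered cytosine. No interval is given for the pool. A bin was called differing if p was at most 0.01, the difference 0.4 or more and neither library had fewer than 10 calls. By this rule 3 of the 25 listed bins differed, all of them higher in miP1a-OX, against 0.402% of all listed bins, 0.275% higher and 0.127% lower. With no minimum of calls it was 4 of 25 against 0.476%. Since p and the difference chose the list and the rule, nothing is read from these counts. Nor is anything read from whether the intervals of the 2 libraries overlap in a listed bin.

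The bin upstream of LpxC1 (8767101 to 8767199) had 8 of 84 methylated calls in Col-0, or 9.52% (4.202 to 17.9). In miP1a-OX it had 8 of 13, or 61.5% (31.6 to 86.1), a difference of 52.0 points (20.9 to 77.2). The intervals of the libraries did not overlap, although the number of methylated calls was the same and it was the unmethylated calls that were fewer. The bin ends 363 bases before LpxC1 and lies in an exon of the transcribed pseudogene AT1G24792. The calls covered 24 of its 38 cytosines in Col-0 and 13 in miP1a-OX. The sequence printed above occurs identically in each of the 4 other copies.

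The bin at the start of the third copy (8802401 to 8802499) had 1 of 16 methylated calls in Col-0, or 6.25% (0.158 to 30.2). In miP1a-OX it had 6 of 10, or 60.0% (26.2 to 87.8), a difference of 53.8 points (12.3 to 82.3). Its intervals overlapped between 26.2% and 30.2%. It lies 1990 bases upstream of LpxC3 and 801 bases from AT1G25053, in no annotated gene. The calls covered 16 and 10 of 28 cytosines, and 3 identical copies of the sequence exist.

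The bin in the fourth copy (8826901 to 8826999) was the deepest of the 4 in miP1a-OX. It had 5 of 26 methylated calls in Col-0, or 19.2% (6.55 to 39.4), and 27 of 41 in miP1a-OX, or 65.9% (49.4 to 79.9). The difference was 46.6 points (20.6 to 65.6), and the intervals did not overlap. It overlaps an exon of the noncoding RNA gene AT1G25175. The calls covered 26 and 21 of its 39 cytosines, and 3 identical copies exist.

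The bin upstream of LpxC5 (8832301 to 8832399) had 3 of 26 methylated calls in Col-0, or 11.5% (2.45 to 30.2), and 4 of 5 in miP1a-OX, or 80% (28.4 to 99.5). The difference of 68.5 points (13.6 to 89.97) was the largest of the 25, and its 5 calls in miP1a-OX were the fewest of any member in that library. It fell below the minimum of 10 calls, and the intervals overlapped. The bin ends 846 bases before LpxC5 in an exon of the transcribed pseudogene AT1G25209. The calls covered 26 and 5 of its 42 cytosines, and each of the 4 other copies holds the same letters.

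None of the identical copies of these 4 sequences was listed a further time at its own place: no listed bin held more than 50 bases of one. Of the positions with near but not identical sequence, 1 was listed, at the start of the first copy. There the bin from 8765501 to 8765599 shares 91 bases with the position equivalent to the bin at 8802401, at an identity of 97.03%, and the 2 sequences read as follows, CG sites in capitals.
chr1:8765501-8765599, copy 1: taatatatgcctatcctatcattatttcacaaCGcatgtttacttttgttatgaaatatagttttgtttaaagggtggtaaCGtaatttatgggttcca
chr1:8802401-8802499, copy 3: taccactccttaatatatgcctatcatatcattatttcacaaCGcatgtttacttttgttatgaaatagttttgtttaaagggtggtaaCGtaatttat

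The first-copy sequence had unique windows alone and was read deeply. In Col-0 16 of 488 calls (3.28%) were methylated, in miP1a-OX 32 of 363 (8.82%), a difference of 5.54 points (2.18 to 9.21). The third-copy sequence, with no unique window and 16 and 10 calls, differed by 53.8 points. Both were higher in miP1a-OX. Because a bin is listed only at p of at most 0.01, a bin with so few calls is listed only if its difference is large, so nothing is read from the sizes of these differences. What part the placement of reads had in this was not tested.

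The cytosines of these bins were mostly outside CG. The bin in the fourth copy has no CG site, so all 27 methylated calls of miP1a-OX lay at CHG or CHH cytosines. The bin upstream of LpxC1 has 1 CG site, with 2 cytosines, and its calls stood at 1 per covered cytosine in miP1a-OX, so at least 6 of the 8 methylated calls were outside CG. For the bin at 8802401, with 2 CG sites, at least 2 of 6 were. For the bin upstream of LpxC5, with 4 CG sites, the counts set no lower bound above 0.

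The 4 bins and the bin at 8796901 in the insertion were the shallowest members. A call count equal to the number of covered cytosines, 1 call on each, occurred in miP1a-OX in 4 of the 25 bins (8767101, 8796901, 8802401 and 8832301) and in Col-0 in 3 (8802401, 8826901 and 8832301). Among listed nuclear bins 0.301% had such a depth in at least 1 library. The median over the 4 bins was 1 call per covered cytosine in either library. It was 10.3 in Col-0 and 11.3 in miP1a-OX over the 21 members with a unique window.

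**Figure D2:**
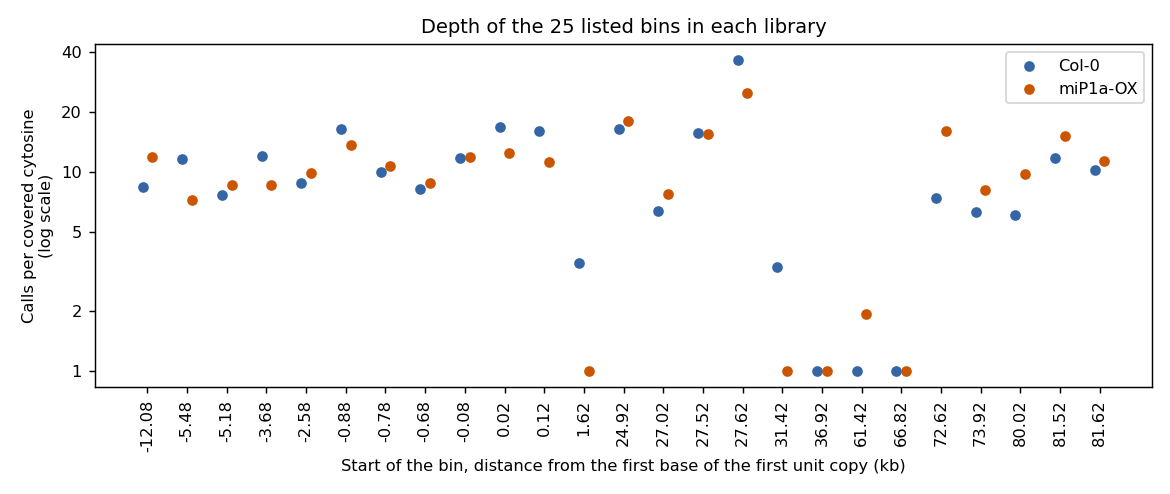
Calls per covered cytosine (log axis) in Col-0 and miP1a-OX for each of the 25 listed bins, ordered by distance of the bin from the first base of the first copy in kb. In 4 bins the miP1a-OX point and in 3 bins the Col-0 point stands at 1, and the points of the flanks lie between 6.10 and 16.5.

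All members together had a median of 8.81 calls per covered cytosine in Col-0 and 9.86 in miP1a-OX, against 10.6 and 11 over the 749 listed bins within 1000000 bases on either side. The 8 listed bins of the unit copies had 5.46 and 6.61. In 19 of 25 members all cytosines were covered in both libraries.

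Over the genome, 55.3% of the 266 nuclear bins past 0.4 had no unique window, beside 0.879% of the listed nuclear bins. Such a difference was met in 29.8% of the 494 listed bins with no unique window, in 1.21% of those with some and in 0.0757% of those with unique windows alone. These shares also carry the filter on p, which lists a shallow bin only with a large difference. The 4 bins of the LPXC duplication with such a difference are 4 of its 4 listed bins without a unique window. With 300-base windows, near the insert size of the libraries, 3 of the 4 still had none, and the bin in the fourth copy had 18.97% unique windows.

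**Figure D3:**
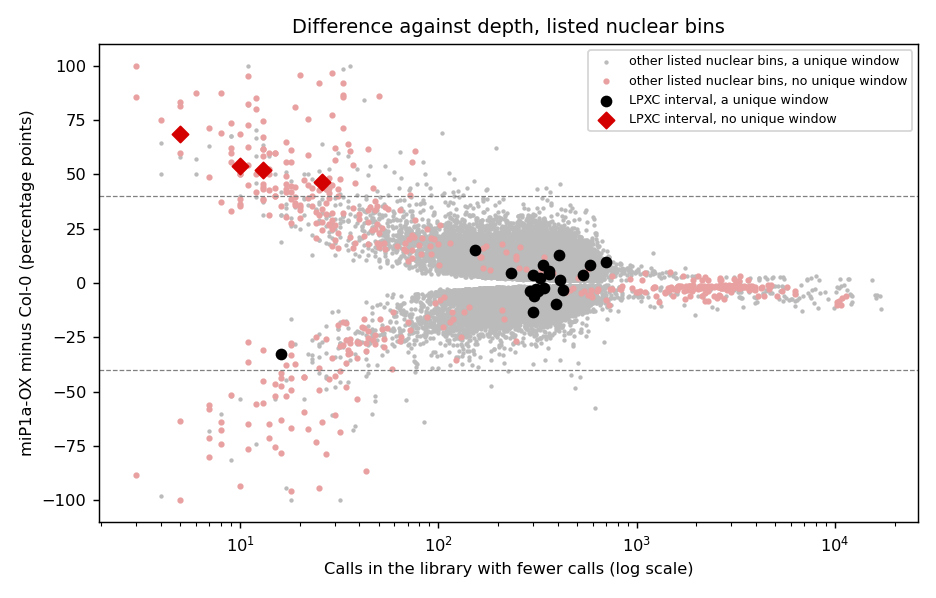
Difference in level (miP1a-OX minus Col-0, percentage points) against the calls in the library with fewer calls (log axis) for the listed nuclear bins, with bins without a unique 150-base window in red and the members of the LPXC interval as large symbols. The 4 members beyond the dashed line at 40 points have between 5 and 26 calls.

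The 5 LPXC genes themselves held no listed bin, so the table gives no level within any of them. With 1000 bases upstream, LpxC1 held the bin at 8767101 and LpxC5 the bin at 8832301, and LpxC2, LpxC3 and LpxC4 held none. With 2000 bases, LpxC1 also held the bins at 8765501 and 8765601 and LpxC3 the bin at 8802401. Those 5 bins were all higher in miP1a-OX. Within 1000 bases 1 of the 5 genes, LpxC1, had a bin that passed the rule for a differing bin, and within 2000 bases 2 genes did, LpxC1 and LpxC3. Since the sequences upstream of LpxC1 and LpxC5 occur in each copy, the gene to which these calls belong is not fixed by them. The sequence of the bin at 8826901 also occurs identically from 8775615 to 8775713, within 1000 bases upstream of LpxC2. Identical copies of the bin at 8802401 lie within 2000 bases upstream of LpxC4 (8816779 to 8816877) and of LpxC5 (8831157 to 8831255). The place of the calls of these 2 bins is not fixed either.

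The interior of the duplication was otherwise nearly empty. Of its unit copies 8 of 653 bins were listed (1.23%), and of the whole interval 25 of 1000 (2.50%), against 4.72% of all nuclear bins. The second copy had 0 listed of 146 bins. The stretches without a listed bin from 8802500 to 8826900 (24401 bases) and from 8767200 to 8790400 (23201 bases) ranked 48 and 56 in length among 13167 gaps of chromosome 1, whose median was 801 bases. LpxC1 and LpxC2 lie in the latter, LpxC3 and LpxC4 in the former. A bin is missing when its levels did not differ past the threshold or when it had too few calls to pass it, and the table does not tell these apart. The 20 other windows of 100000 bases within 1000000 bases held 22 to 66 listed bins, with a median of 40, and 2 of them held 1 bin each past 0.4.

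At the left edge of the duplication 6 successive listed bins, with unlisted bins between some of them, were higher in miP1a-OX. Of all listed nuclear bins 64.0% were higher, but the run was picked by its values, so nothing is read from this count. The 6 bins reach from the intergenic sequence left of the first copy into the pseudogene AT1G24792, within 1000 bases of the first base of the copy. Left of the edge, the bin at 8764601 went from 0 of 496 to 6 of 410 methylated calls, the bin at 8764701 from 6 of 362 to 22 of 386 and the bin at 8764801 from 2 of 231 to 14 of 246. Over the edge, the bin at 8765401 went from 1 of 533 to 20 of 537. The last of the run, at 8765601, went from 86 of 483 (17.8%) to 89 of 338 (26.3%) and was the most methylated of the 6. It has no CG site, so its calls are all at CHG and CHH cytosines.

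Pooled over these 6 bins, the level was 4.28% (3.53 to 5.13) in Col-0 and 8.03% (6.94 to 9.22) in miP1a-OX, a difference of 3.75 points (2.37 to 5.15). Median depth was 14.0 and 11.6 calls per covered cytosine. All cytosines were covered in both libraries, and 5 of the 6 bins had unique windows alone, the bin at 8765601 having 69.0%. The bins at 8764601, 8764701, 8765501 and 8765601 each have 4 close copies, all inside the interval and none identical. The run was put together after its values had been seen.

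In the insertion of the second copy 5 of 79 bins were listed, so the level of the insertion as a whole is not known. Its 5 listed bins pooled to 34.5% (32.6 to 36.5) in Col-0 and 44.9% (42.6 to 47.1) in miP1a-OX, a difference of 10.3 points (7.34 to 13.3). As a mean over the 5 bins the difference was 2.69 points, since the pool gives little weight to the shallow bin at 8796901. In 4 of the 5 the level was higher in miP1a-OX. The bin in the pseudogene AT1G24938 (8790401 to 8790499) went from 264 of 578 (45.7%) to 343 of 633 (54.2%). It has no close copy elsewhere and 88.3% unique windows.

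The next bins of the insertion lie between pseudogenes. The bin at 8792501 went from 46 of 153 (30.1%) to 81 of 179 (45.3%) and the bin at 8793001 from 77 of 407 (18.9%) to 128 of 404 (31.7%). The bin at 8793101 went from 364 of 1030 (35.3%) to 316 of 702 (45.0%) and had the most calls of all members. These 3 bins have 3, 9 and 4 close copies, all outside the interval, of which 1, 2 and 0 are identical. Their shares of unique windows are 27.8%, 70.8% and 86.5%.

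The bin in the pseudogene AT1G24967 (8796901 to 8796999) had the largest decrease of the interval. In Col-0 35 of 107 calls were methylated (32.7%, 23.95 to 42.5), in miP1a-OX 0 of 16, with an interval up to 20.6%. The difference was -32.7 points (-42.5 to -10.3), and the counting intervals did not overlap. Here too miP1a-OX had 1 call per covered cytosine, on 16 of 44 cytosines, and 32.9% of the windows were unique. The bin has 6 close copies, all outside the interval, of which 2 are identical.

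Apart from the 3 intergenic bins of the run at the edge, the members of the left flank lay in exons of MAP70-2 (AT1G24764), which encodes a microtubule-associated protein, and of THO2 (AT1G24706), a subunit of the THO complex of mRNA processing. The bin in THO2 (8753401 to 8753499) went from 9 of 339 calls (2.65%) to 1 of 476 (0.210%). In MAP70-2 the level was lower in miP1a-OX in 3 of 4 bins. The bin at 8760301 went from 99 of 301 (32.9%) to 65 of 335 (19.4%), a difference of -13.5 points (-20.4 to -6.45). The bin at 8760001 went from 49 of 488 (10.04%) to 12 of 305 (3.93%). The bin at 8761801 went from 20 of 589 (3.396%) to 0 of 423, with an interval up to 0.868%. The bin at 8762901 went the other way, from 0 of 326 to 8 of 365 (2.19%). All 5 bins had unique windows alone.

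On the right, ASB1 (AT1G25220), the beta subunit of anthranilate synthase in tryptophan synthesis, held 2 bins, both lower in miP1a-OX. The bin at 8838101, in the last bases of the fifth copy, went from 16 of 289 (5.54%) to 11 of 631 (1.74%). The bin at 8839401 went from 9 of 309 (2.91%) to 1 of 397 (0.252%). In the ENTH/VHS/GAT family gene AT1G25240 the bin at 8845501 was higher, from 1 of 299 (0.334%) to 20 of 481 (4.16%).

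The last pair of members lies 275 and 375 bases beyond AT1G25240 and had no methylated call in miP1a-OX. The bin at 8847001 went from 11 of 317 (3.47%) to 0 of 411 and the bin at 8847101 from 38 of 392 (9.69%) to 0 of 434. The intervals of these levels of 0 reach up to 0.894% and 0.846%. Pooled, the difference was -6.91 points (-9.03 to -5.10). The nearest listed bins outside the interval had 18.8% in Col-0 and 28.2% in miP1a-OX on the left (8738601) and 3.47% and 0.262% on the right (8854501).

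**Figure D4:**
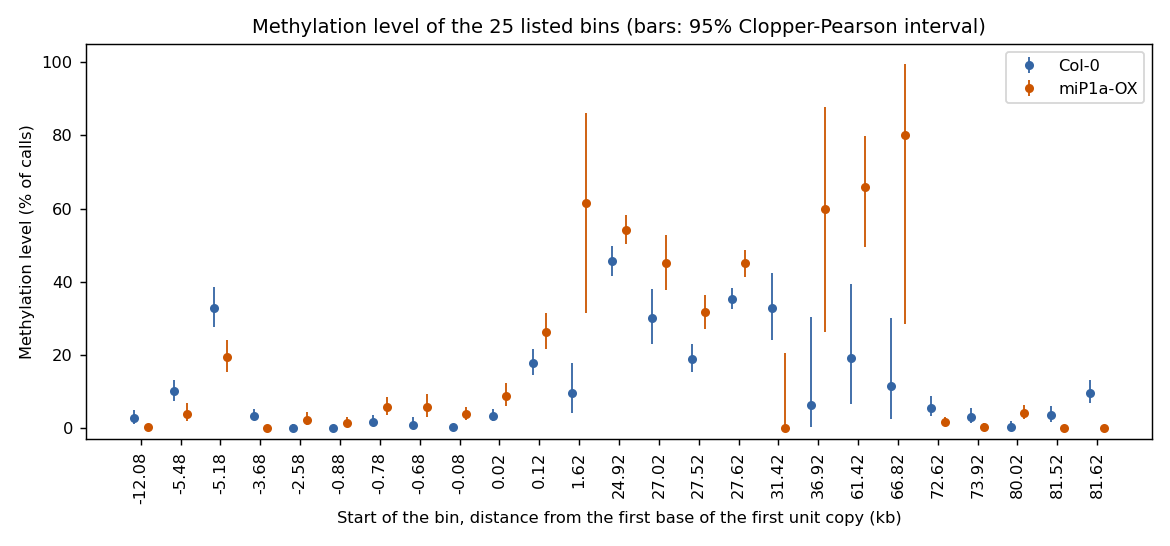
Methylation level (percent of calls) of each of the 25 listed bins in Col-0 and miP1a-OX, with 95% Clopper-Pearson intervals, ordered by distance from the first base of the first copy in kb. The 4 bins with miP1a-OX at 60% to 80% have the widest intervals, and the 4 bins of the insertion at 31.7% to 54.2% in miP1a-OX have narrow ones.

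Of the 25 members 16 were higher and 9 lower in miP1a-OX (64.0%), and among listed nuclear bins 64.0% were higher. Pooled over all 25, the level was 13.5% (12.7 to 14.2) in Col-0 and 14.2% (13.5 to 14.97) in miP1a-OX, a difference of 0.764 points (-0.276 to 1.80). The 21 members with a unique window pooled to a difference of 0.308 points (-0.733 to 1.35), and 12 of them were higher. By group, 7 of 8 bins of the unit copies, 4 of 5 of the insertion and 5 of 12 of the flanks were higher. The 7 include all 4 bins with no unique window. In that order the groups pooled to differences of 3.17 points (1.38 to 4.97), 10.3 points (7.34 to 13.3) and -2.29 points (-3.15 to -1.44). The groups were small and drawn after the values were seen, so nothing is read from these counts.

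The other genes of the lipid A chain were read the same way, with 1000 bases upstream. LpxA (AT4G29540), the acyltransferase of the first step, held 1 bin (chr4:14497501-14497599), which went from 1 of 507 (0.197%) to 23 of 422 (5.45%). LpxD1 (AT4G05210), an acyltransferase that acts after LPXC, held 4 bins, of which 3 were higher and 1 lower in miP1a-OX. Of these, the bin at 2682601 on chromosome 4 went from 107 of 705 (15.2%) to 45 of 513 (8.77%) and the bin at 2683801 from 13 of 361 (3.60%) to 31 of 337 (9.20%). LpxD2 (AT4G21220), LpxB (AT2G04560), the disaccharide synthase, LpxK (AT3G20480), the kinase, and KDTA (AT5G03770), the Kdo transferase, held none. No bin of these 6 genes had a difference past 0.4, and the bins of LpxA and LpxD1 were unique over their whole length.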

How the data were processed

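Genomic DNA of 1 Col-0 and 1 miP1a-OX library was bisulfite treated and sequenced. The authors mapped the reads with BS-Seeker2 2.1.0 and Bowtie2 to TAIR9. How reads with several equal hits were treated is not given in the sources used here. The authors deposited counts of methylated and unmethylated calls per bin without normalization, and the deposited level is a fraction of these counts. The deposited p-value of a bin is that of Fisher's exact test of both libraries' counts, unadjusted and never above 0.01. Other deposited columns repeat these values, and the annotation that came with them was not used.

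Levels, 95% Clopper-Pearson intervals and Fisher's exact test were computed with scipy 1.17.1, pandas 2.3.3 and numpy 2.4.6 in python 3.11.15, and the test was tested on simulated data. The interval of a difference combined the intervals of both libraries. For a level of 0 in miP1a-OX the upper limit of its Clopper-Pearson interval is given. Copies were found with blastn 2.17.0 (block alignments of at least 5000 bases, bin copies at 90% identity over 80 bases). A 150-base window was unique if its converted sequence occurred once in the genome. Figures used matplotlib 3.10.9.

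The members and gene lists were chosen with earlier results of these data known. The bins named are those past the thresholds, the largest changes and those in genes of the interval. The zones, the run of 6 bins and the windows were chosen after the values were seen.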

Additional observations from a re-analysis of the deposited data

How the results depend on the processing

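The count of 3 differing bins fell to 1 with a minimum of 20 calls, to 0 with 50, to 1 after Benjamini-Hochberg adjustment over the bins of the genome and to 0 when only bins with a unique window were kept, an alternative chosen after seeing the data. It was 4 without the minimum, which adds the bin at 8832301. With a difference of 0.3 it was also 4, the added bin at 8796901 being lower in miP1a-OX. It was 2 with 0.5, 2 with the deeper library thinned and 2 between the first and the last LPXC gene. Over that stretch the share of bins higher in miP1a-OX moved from 62.5% of 24 to 85.7% of 7, and the pooled difference from 0.719 to 11.2 points. Those 7 include the 5 listed bins of the insertion, which alone pooled to 10.3 points and hold most of the calls. Over the 24 members, the difference was 6.45 as a mean over bins and 2.31 after thinning. The number of LPXC genes with a differing bin, 1 with 1000 bases upstream, was 0 for the gene alone, 2 with 2000 bases and 0 with a minimum of 50 calls. The ratio of the members' depth to that of bins nearby was 0.830 in Col-0 and 0.897 in miP1a-OX as medians, 0.888 and 0.874 as means, and 0.909 and 0.989 against bins within 200000 bases. After thinning, 0 of the 25 single differences turned direction, and 9 no longer had p of at most 0.01. Depth limits the 5 members with fewer than 50 calls in a library, whose levels have the widest intervals. The cause of these moves was not tested. No paired analysis was possible because there is 1 library of either genotype.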
